A study of Mus musculus with 2 samples.

Results

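MERFISH reads single RNA molecules as barcoded spots in a tissue section, and a separate step then draws an outline around each cell in the same images. Spots that fall in no outline keep their gene and position but belong to no cell, and they are absent from every cell-by-gene matrix. This account is about those spots in mouse liver, that is, the decoded transcripts whose cell number is -1, set against the transcripts that carry any other cell number. Of 1440468 decoded gene transcripts, 536700 lay outside segmented cells and 903768 inside.

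The data came from 2 sections of mouse liver in 1 group, numbered as replicates 1 and 2. Livers were snap frozen, cut at 10 µm and imaged with a panel of 500 genes and 50 Blank codes, barcodes that name no gene. Both samples are tagged 2d, whose meaning the labels do not explain, and no strain, age, genotype or treatment is given. The design text of the series describes treated mice with liver metastases, which no label ties to either section. Nothing says that the sections came from separate animals, so p-values cannot be read as measuring a spread between animals. They rest on how far these sections disagree, which may be technical. The spread used for a gene is also drawn in part from the other genes.

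Hepatocytes, the parenchymal cells of the liver, are large and often polyploid, and make most plasma proteins, whose mRNAs are translated on the endoplasmic reticulum throughout the cytoplasm. Blood cells, Kupffer cells (the resident macrophages) and endothelial cells are smaller and lie in or along the sinusoids between plates of hepatocytes. Haptoglobin (Hp) and prothrombin (F2), which hepatocytes secrete into plasma, were among the 10 genes with most transcripts, as were the fibrinogen chains Fga and Fgb, so the liver label fitted the transcripts.

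Section 1 held 715621 gene transcripts, of which 40.1% lay outside cells (exact 95% interval 40.0% to 40.3%). Section 2 held 724847, of which 34.4% lay outside (34.3% to 34.5%). These intervals, and all that follow, are exact Clopper-Pearson intervals that cover counting error only. Blank codes lay outside more often, at 57.5% of 9251 in section 1 and 48.5% of 3618 in section 2. They made up 1.82% of all outside and 0.910% of all inside transcripts in section 1, and 0.699% and 0.390% in section 2. A single code, Blank-29, held 2140 of the Blank transcripts of section 2, and 56.9% of these lay outside, while the other Blank codes there stood at 36.5%, close to the genes. In section 1 all 44 Blank codes with at least 20 transcripts were outside more often than the genes together. In section 2 this held for 17 of 22.

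For each gene, the share of all outside gene transcripts was divided by its share of all inside gene transcripts, so that a log2 ratio above 0 means that the gene was over-represented outside. With section as a block, 0 of 484 tested genes passed edgeR's quasi-likelihood test in either direction (0% called, adjusted p at least 0.098). At an unadjusted p under 0.05 there were 125 genes, 36 higher and 89 lower outside. DESeq2 on the same sums, which it scales in its own way and not by the gene totals, called 9. It called Il1a, Rab17, Rgs1 and Slfn1 higher outside and Apobec3, Emilin2, Epor, Ighm and Pim1 lower outside. The test rested on 4 sums with 1 residual degree of freedom. The values below are levels in each section with their counting intervals. No direction below was called by the edgeR test unless this is stated.

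A gene was put on a side of its section when its interval for the percent outside lay wholly below or wholly above that of all genes together. By this rule 111 of the 484 genes (22.9%) lay below in both sections, 32 (6.61%) above in both, and 18 (3.72%) on opposite sides. In section 1, 169 genes lay below and 151 above, and in section 2, 156 below and 51 above. Of 142 genes with at least 500 transcripts in each section, 109 had the same sign of log2 ratio in both. Across these genes, which share 2 libraries and are not independent replicates, Pearson's r of the log2 ratios between sections was 0.73 and Spearman's rho 0.78. Ratios were wider in section 1, with an SD over genes of 0.69 on the log2 scale against 0.38 in section 2, and 103 of the 142 genes stood farther from 0 in section 1.

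**Figure D1:**
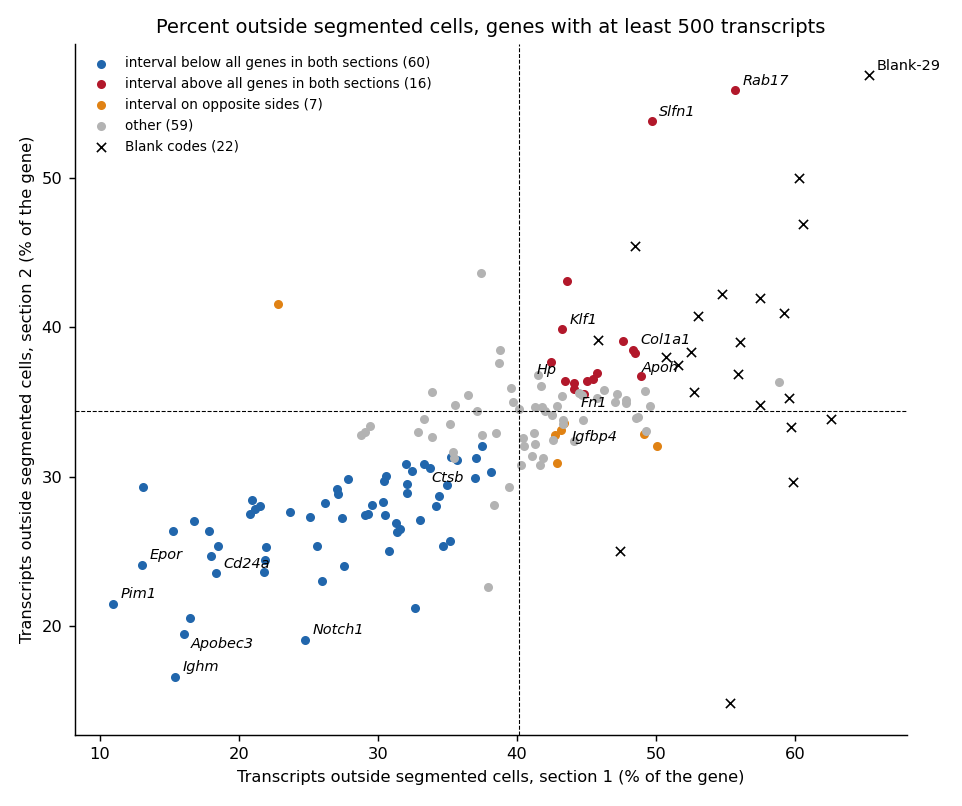
Percent of each gene's transcripts outside segmented cells in section 1 (x axis) and section 2 (y axis), for the 142 genes with at least 500 transcripts in each section (points) and for Blank codes with at least 20 in each (crosses). Dashed lines mark all genes together, at 40.1% and 34.4%; 60 genes lie below both (blue) and 16 above both (red), and Blank-29 lies at 65.3% and 56.9%.

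The genes found least often outside included several known from blood-forming and immune cells. The 12 lowest by mean log2 ratio were taken among those of the 142 genes that lay below all genes in both sections. They were chosen after their values were seen. None of the 12 exceeded the highest Blank code of section 2, Blank-29, at 2140 transcripts, though all exceeded the second highest, at 183. In section 1, Apobec3 (971 transcripts) and Dennd4a (776) lay under the highest Blank code, at 987. Ighm, which encodes the heavy chain of IgM, was 1 of the 12. Ighm had 453 transcripts outside and 2482 inside in section 1 (15.4% outside, interval 14.1% to 16.8%), and 239 outside and 1200 inside in section 2 (16.6%, 14.7% to 18.6%). Its outside level was thus low in both sections, and its log2 ratio of -1.64 (SE 0.23) had the lowest adjusted p of the edgeR test, 0.098.

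Pim1, a kinase induced by cytokine signals, had 204 transcripts outside and 1657 inside in section 1, and 275 outside and 1004 inside in section 2. Its log2 ratio was -2.45 in section 1 and -0.94 in section 2. Epor, the erythropoietin receptor, stood at 13.1% outside in section 1 and 24.1% in section 2. For both genes the distance from all genes was larger in section 1. Apobec3, a cytidine deaminase that restricts retroviruses, stood at 16.1% and 19.5% outside. Emilin2, an extracellular matrix glycoprotein, stood at 16.5% and 20.5%. Ncf1, a subunit of the phagocyte NADPH oxidase, stood at 15.3% and 26.3%, and Btg2, an antiproliferative gene, at 16.8% and 27.1%. Notch1 was the only gene of the 12 that stood lower in section 2, with 24.8% outside in section 1 and 19.1% in section 2. The other 4 were Cd24a, Dennd4a, Fam214b and Itgb2, between 13.1% and 18.5% outside in section 1 and between 23.5% and 29.3% in section 2.

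At the other end stood a mixed set of genes, here the 12 highest of the 16 that lay above all genes in both sections. Rab17, a small GTPase of epithelial vesicle transport, had 1423 transcripts outside and 1131 inside in section 1 (55.7% outside, interval 53.8% to 57.7%), and 1249 outside and 986 inside in section 2 (55.9%, 53.8% to 58.0%). Slfn1, a member of the Schlafen family, stood at 49.7% and 53.8%. In section 1 both lay near or below the Blank codes at 57.5%, and in section 2 both lay above the Blank codes at 48.5% but below Blank-29 at 56.9%. Col1a1, a chain of type I collagen, had 6335 transcripts outside and 6772 inside in section 1 (48.3% outside), and 3397 outside and 5425 inside in section 2 (38.5%). Apoh, a plasma glycoprotein made by hepatocytes, stood at 48.5% and 38.2%, and Klf1, a transcription factor of red cell precursors, at 43.3% and 39.9%. The other members of these 12 were Cldn1, Cyp2e1, F2, Fga, Igfbp2, Lrp6 and Mmut, none of them above 48.9% in section 1 or above 43.1% in section 2. Of the 12, Slfn1, Cldn1, Lrp6 and Mmut held fewer transcripts in section 2 than the highest Blank code there, at 2140.

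Secreted plasma proteins made up 45.1% of outside and 38.1% of inside gene transcripts in section 1, and 52.1% of outside and 48.5% of inside in section 2. Of 16 tested members, 8 lay above all genes in both sections, none below in both, and 1, Igfbp4, on opposite sides, against 6.61% of all tested genes above in both. None of the 16 passed edgeR's test. The median log2 ratio of the list was 0.25 in section 1 and 0.12 in section 2, against 0.00 and -0.14 over all tested genes. Hp had 25556 transcripts outside and 33194 inside in section 1 (43.5% outside), and 41021 outside and 71671 inside in section 2 (36.4%). Fn1, which encodes fibronectin, stood at 44.1% and 35.9% outside, Igfbp2 at 45.0% and 36.4%, and F2 at 44.1% and 36.3%. Each of these 4 genes lay above all genes in both sections. Since these genes hold so many transcripts, they also set the shares of all others, and the direction of the abundant ones was not the same at every depth of the section, as described below.

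Few hepatocyte enzymes and membrane genes lay on the same side of all genes in both sections. The median log2 ratio of the enzymes was 0.30 in section 1 and 0.04 in section 2. In section 1 this was no lower than the 0.25 of the plasma proteins. The membrane and junction genes had medians of 0.07 and 0.10, against 0.00 and -0.14 over all tested genes. Of 22 tested metabolic enzymes, 2 lay above in both sections, Cyp2e1 (45.7% and 37.0% outside) and Lhpp (52.6% and 45.5%, of 215 and 202 transcripts), and none below in both. Over all tested genes these shares were 6.61% above and 22.9% below. Glutamine synthetase (Glul) lay above in section 1, at 42.9%, and below in section 2, at 30.9%, and sorbitol dehydrogenase (Sord) did so too, at 42.7% and 32.8%. Of 7 genes of hepatocyte membranes and junctions, 1 lay above in both, against 6.61% of all tested genes, and none below in both. It was Met, the hepatocyte growth factor receptor, at 49.6% of 119 and 47.5% of 265 transcripts. Lhpp and Met both lay within the range of the Blank codes. Among 15 transcription factors, Hnf4a (38.5% and 32.9%) and Cebpa (41.2% and 33.0%), which maintain hepatocyte identity, overlapped all genes in both sections. Tcf3, Klf2, Cebpb and Hoxb4 lay below in both and Klf1 above in both, shares near the 22.9% and 6.61% of all tested genes. Of 4 genes of glycolysis and the pentose phosphate pathway, 2 lay below in both, against 22.9% of all tested genes. They were Tkt (27.1% and 29.2%) and Pkm (29.3% and 27.5%). Ldha lay on opposite sides, at 43.2% and 33.1%.

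Most tested erythroid genes lay below all genes in both sections over all planes, with Klf1 apart from the rest. Of 6 tested members, 4 lay below all genes in both sections, against 22.9% of all tested genes, and the list medians were -1.08 in section 1 and -0.54 in section 2. Car2, a carbonic anhydrase of red cells, stood at 21.5% and 28.1% outside, and Cd24a, a surface glycoprotein of immature blood cells, at 18.4% and 23.5%. Klf1 was the 1 member above all genes in both. Of 4 cell cycle genes, 2 lay below in both, against 22.9% of all tested genes. They were the proliferation marker Mki67 (21.8% and 23.6%) and the mitotic kinesin Cenpe (19.8% and 19.4%). Cdk1, the mitotic kinase, overlapped all genes in section 1 at 37.4% and lay above in section 2 at 43.6%, where 39.0% of its outside transcripts fell in a single field of view.

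Genes of phagocytes and vessels lay below all genes or overlapped them, with a few exceptions. Of 10 monocyte and neutrophil genes, 4 lay below in both sections and none above in both, against 22.9% and 6.61% of all tested genes. The median log2 ratio was -1.36 in section 1 and -0.42 in section 2, against 0.00 and -0.14 over all tested genes. The 4 below in both were Ncf1, the integrin chains Itgb2 (18.5% and 25.3% outside) and Itgam (21.0% and 19.3%), and the chemokine receptor Cxcr2 (21.3% and 21.2%). Other members went the other way in 1 section. Ccr2 had the highest log2 ratio of the list in section 1, 0.38, with 128 transcripts outside and 147 inside, but 11 and 40 in section 2. Ly6g had the highest in section 2, 0.58, with 55 outside and 70 inside, but 7 and 17 in section 1. Of 11 macrophage genes, 4 lay below in both (22.9% over all tested genes), among them the receptor Csf1r (25.6% and 25.3%) and the lysosomal protease Ctsb (33.3% and 30.9%). The Kupffer cell lectin Clec4f did not follow them. It lay above all genes in section 1, at 44.1%, and overlapped them in section 2, at 32.4%. Nor did Il1a, another member, with 187 transcripts outside and 240 inside in section 1, and 2084 outside and 483 inside in section 2. Of 18 endothelial genes, 8 lay below in both, against the same 22.9%, and 1, Wnt2, on opposite sides, and the list medians were -0.33 and -0.46. Notch1 was the lowest of these, and Cdh5, the cadherin of endothelial junctions (34.7% and 25.4%), was among the others. Oit3, a sinusoidal endothelial gene, had 542 transcripts outside and 1219 inside in section 1, and 237 outside and 711 inside in section 2, and also lay below in both. The adhesion molecule Vcam1 lay above all genes in section 1, at 49.2%, and overlapped them in section 2, at 35.7%. None of the members of these 3 lists lay above in both.

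The remaining lists were mixed. Of 10 mesenchymal genes, Col1a1 and Lepr (59.3% and 51.8% outside, of 59 and 56 transcripts and close to the Blank codes) lay above in both and the chemokine gene Cxcl12 (35.3% and 31.3%) below in both. Over all tested genes these shares were 6.61% above and 22.9% below. Of 4 megakaryocyte and platelet genes, 2 lay above in both, against 6.61% of all tested genes, among them Gp1bb (57.8% and 39.6%). Thbs1 (35.2% and 25.7%) lay below in both, as did 22.9% of all tested genes. Gp1bb was close to the Blank codes in section 1. Of 15 lymphocyte genes, 3 lay below in both, near the 22.9% of all tested genes, among them the B cell gene Cd79b (23.6% and 17.9%) and the chromatin organiser Satb1. The T cell receptor subunits Cd3e and Cd3g lay on opposite sides, with 54.2% and 53.8% outside in section 1 and 20.6% and 16.2% in section 2. In section 1 both were close to the Blank codes, whose median was 55.6% outside. Counts were low in section 2, with 13 transcripts outside and 50 inside for Cd3e, and 6 and 31 for Cd3g. Granzyme A (Gzma) stood at 57.3% outside in section 1, close to the Blank codes there, and at 31.0% in section 2. Of 6 bile duct genes none lay below in both or above in both.

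**Figure D2:**
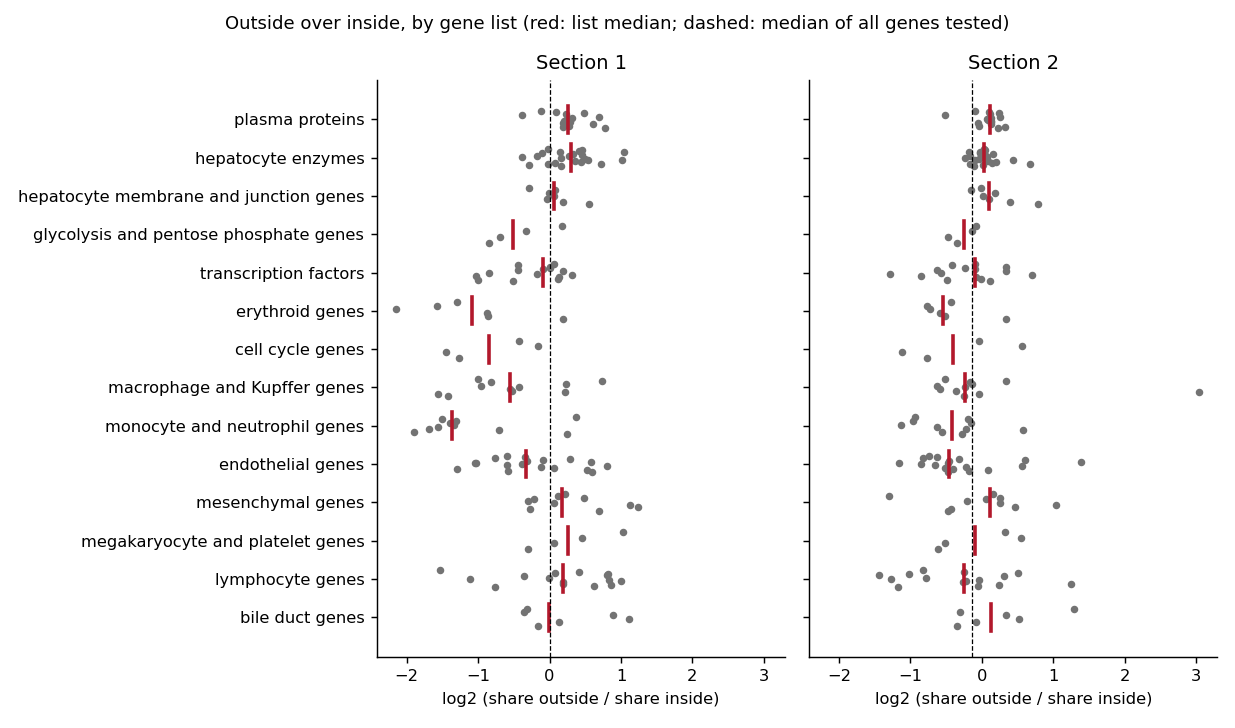
Log2 ratio of a gene's share of outside transcripts over its share of inside transcripts (x axis), by gene list (rows), in section 1 (left) and section 2 (right). Points are single genes, red bars list medians and dashed lines the median of all tested genes, 0.00 and -0.14; monocyte and neutrophil genes have medians of -1.36 and -0.42, and plasma proteins 0.25 and 0.12. The point at 3.04 in section 2 is Il1a.

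The share outside depended on depth in the section. Each section was imaged in 7 planes, numbered 0 to 6, and plane 0 held 47.7% of the gene transcripts of section 1 and 30.7% of those of section 2. In section 1, 50.4% of gene transcripts of plane 0 lay outside cells, 27.6% of plane 2 and 30.7% of plane 6. In section 2 the values were 40.0%, 31.9% and 27.9%. Outside transcripts thus came disproportionately from plane 0, most of all in section 1.

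The plasma proteins changed places along these planes. In plane 0 of section 1, 54.8% of their transcripts lay outside, against 50.4% for all genes, but in plane 6 the values were 23.8% and 30.7%. In plane 0 of section 2 they were 42.3% and 40.0%, and in plane 6 25.5% and 27.9%. Their interval lay above all genes in 2 planes and below in 4 of 7 in section 1, and above in 3 and below in 4 in section 2. The surplus of plasma protein transcripts outside was thus found in the lowest planes and not in the highest. Monocyte and neutrophil genes lay below all genes in 6 planes of section 1 and 4 of section 2, and above in none. The pooled erythroid list was mixed by plane. In section 1 it lay below all genes in 4 planes and above in 1. In section 2 it lay below in 2 and above in 3. Klf1, the exception in this list, was over the percentage of all genes in 6 of 7 planes of each section. In plane 6 of section 2, Klf1 held 364 of the 444 outside transcripts of the list. Car2 was under all genes in 7 planes of section 1 and 6 of section 2. Cell cycle genes lay below in all 7 planes of section 1, and below in 2 and above in 3 in section 2. Mki67 was under all genes in all 7 planes of both sections. The pooled macrophage list lay below in all 7 planes of section 1, and below in 4 and above in 3 in section 2. In those 3 planes, numbered 3 to 5, Il1a held 795 of 1685, 635 of 1347 and 448 of 917 outside transcripts of the list. Csf1r and Ctsb were under all genes in all 7 planes of section 2. Ighm, Epor, Apobec3, Emilin2, Cd24a, Ncf1 and Notch1 were under the percentage of all genes in all 7 planes of both sections. Rab17 and Slfn1 were over it in all 7 planes of section 1. In section 2, Rab17 stood at 76.7%, 58.5% and 56.8% outside in planes 3 to 5, but at 30.2% in plane 1, against 36.2% for all genes. Slfn1 stood at 70.1% in plane 3 and 36.3% in plane 1 of section 2.

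**Figure D3:**
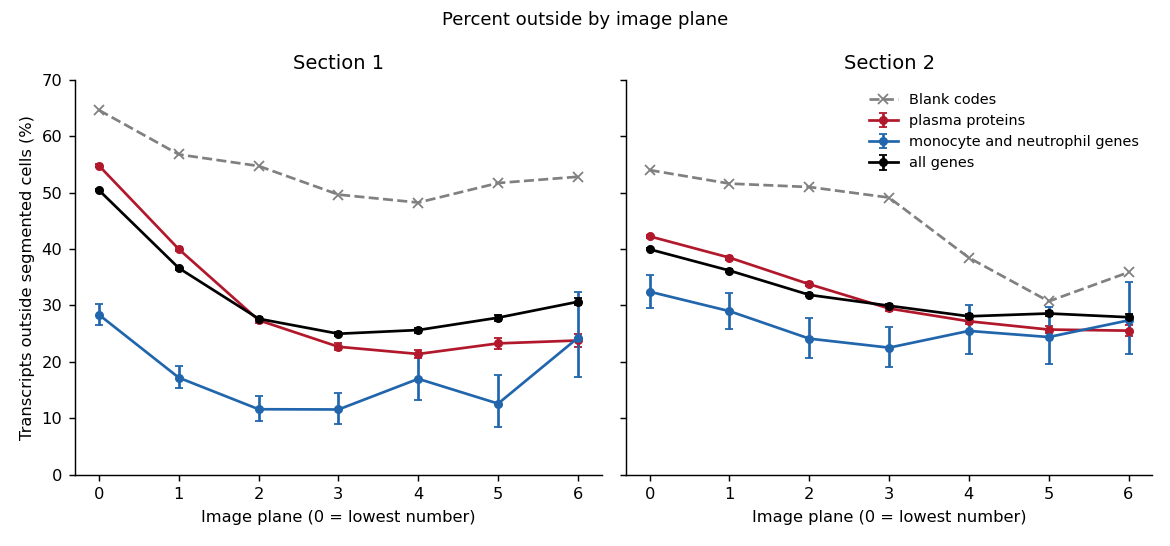
Percent of transcripts outside segmented cells (y axis) in each of 7 image planes (x axis), in section 1 (left) and section 2 (right), for all genes, plasma proteins, monocyte and neutrophil genes (bars, exact 95% intervals) and Blank codes. Plasma proteins lie above all genes in plane 0 of both sections (54.8% against 50.4%, and 42.3% against 40.0%) and below them in plane 6.

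The share outside also varied over the area of a section. Among 250 µm tiles with at least 200 transcripts, it ran from 12.1% to 83.6% with a median of 42.5% in section 1 (235 tiles), and from 13.5% to 73.2% with a median of 35.4% in section 2 (290 tiles). Across tiles, which share a section and are no replicates, the share outside correlated with the number of segmented cells at 0.32 in section 1 and -0.62 in section 2. Denser tiles thus tended to have a larger share outside in section 1 and a smaller share in section 2. Because genes and cells are both unevenly spread, equal numbers of outside and inside transcripts were also drawn from each 50 µm square that held both, which left 217161 of each place in section 1 and 214618 in section 2. In these squares the log2 ratio of Ighm was -1.77 in section 1 and -1.53 in section 2, of Pim1 -2.04 and -1.14, and of Epor -1.78 and -0.83. Hp stood at 0.21 and 0.19 and Apoh at 0.49 and 0.34. Rab17, by contrast, stood at 0.17 and 0.00, Slfn1 at 0.10 and 0.22, Klf1 at -0.18 and -0.02, and Col1a1 at 0.00 and 0.17. The calls of a test on such squares varied with the random draw and are not used here.

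Most outside transcripts lay close to a cell. Their median distance to the nearest segmented cell centre was 8.62 µm in section 1 and 7.30 µm in section 2. Of them, 23.0% and 34.2% fell within the bounding box of a cell, and 1.47% and 1.43% lay over 30 µm from any cell centre. Squares of 50 µm without a cell centre held 9942 outside gene transcripts (3.46%) in section 1 and 4019 (1.61%) in section 2. In section 1 their leading genes were Hp and Fn1, at 11.3% each. In section 2 they were Il1a, which encodes the cytokine interleukin 1 alpha, at 24.4%, Rab17 at 13.8% and Slfn1 at 6.84%, and Blank codes made up 10.3% of the outside transcripts of such squares.

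Il1a differed widely between sections. It had 187 transcripts outside and 240 inside in section 1 (43.8% outside), and 2084 outside and 483 inside in section 2 (81.2%). In section 2 the median distance of its outside transcripts from a cell centre was 27.5 µm, and 47.1% of them lay in squares without a cell centre, against 4.81% in section 1. For Rab17 these values were 26.3 µm and 44.4% in section 2, against 8.43 µm and 0.77% in section 1. Blank-29 shared this pattern, with 124, 148 and 945 outside transcripts in the nearest, middle and farthest of 3 equal bins of distance in section 2. The part of misread barcodes in the outside transcripts of Il1a and Rab17 was not tested.

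In each section, outside transcripts were also cut into 3 bins of like size by distance from a cell centre, at 7.20 and 10.4 µm in section 1 and 6.27 and 8.53 µm in section 2. Of 431 tested genes, 4 passed edgeR's quasi-likelihood test as higher in the farthest than in the nearest bin (0.928% called), namely Lamp3, Ly6g, Dpp4 and Ctla2a, and 3 as lower (0.696% called), namely Ighm, Btg2 and Ctsb. DESeq2 called none of 431, with 15 at an unadjusted p under 0.05. All 7 genes had the same direction in both sections. Of the 7, only Ctsb exceeded the highest Blank code in both sections. The others, Ighm and Btg2 among them, are named only because they are few.

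Ctsb had 4123, 3851 and 3134 outside transcripts in the nearest, middle and farthest bin of section 1, and 2179, 2008 and 1703 in section 2. It fell with distance in both sections, with a log2 change of -0.36 (SE 0.08, adjusted p of the edgeR test = 0.0036). Ighm had 192, 162 and 99 in section 1 and 99, 70 and 70 in section 2 (log2 change -0.73, SE 0.20, edgeR adjusted p = 0.018), which is -0.95 in section 1 alone and -0.48 in section 2 alone. Btg2 had 225, 172 and 129 in section 1 and 224, 176 and 155 in section 2 (log2 change -0.65, SE 0.18, edgeR adjusted p = 0.024). All 3 thus had fewest or joint fewest outside transcripts in the farthest bin.

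Lamp3, a lysosomal membrane protein gene of mature dendritic cells, had 2, 5 and 5 outside transcripts in the bins of section 1 and 30, 31 and 282 in section 2 (log2 change 3.07, SE 0.33, edgeR adjusted p = 4.3e-15). Its log2 change was 1.14 in section 1 alone and 3.23 in section 2 alone. Ly6g, a neutrophil surface gene, had 2, 0 and 5 in section 1 and 8, 10 and 37 in section 2, with log2 changes of 1.14 and 2.16. Dpp4, a membrane peptidase, had 16, 12 and 22 in section 1 and 38, 36 and 112 in section 2, with log2 changes of 0.45 and 1.56. Ctla2a, a cathepsin inhibitor gene, had 25, 45 and 56 in section 1 and 29, 35 and 57 in section 2. Of these 4 genes, Ctla2a had the closest log2 changes in the sections, 1.17 and 0.99. Along the bins, Blank codes made up 1.68%, 1.70% and 2.07% of outside transcripts in section 1, and 0.315%, 0.368% and 1.41% in section 2. They thus moved with the genes that were higher far from cells, above all in section 2. There, Blank-29 held 1217 of the 1756 outside Blank transcripts, most of them in the farthest bin. The rise in section 2 was thus largely that of a single code. The part of Blank codes in these calls was not tested.

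**Figure D4:**
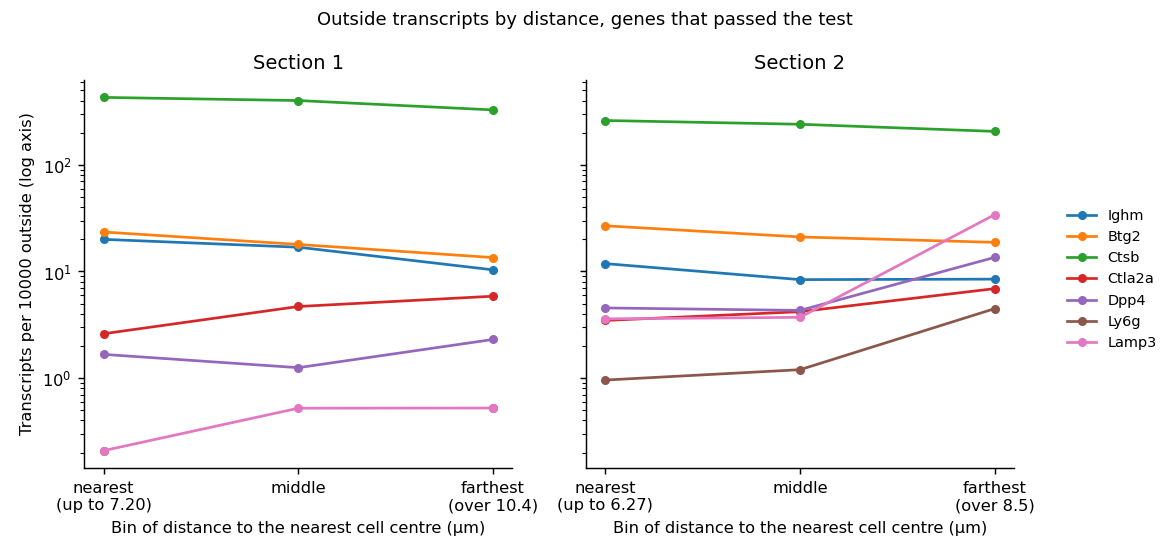
Outside transcripts of the 7 genes that passed edgeR's test, per 10000 outside gene transcripts of the bin (y axis, log scale), in the nearest, middle and farthest bin of distance to a cell centre (x axis), in section 1 (left) and section 2 (right). Ctsb, Ighm and Btg2 lie lower in the farthest than in the nearest bin in both sections, and the rise of Lamp3 to 282 transcripts is in section 2; in section 1 the points of Ly6g lie under those of Lamp3, and its middle bin, with 0, has no point.

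The cell nearest to an outside transcript held the same gene more often than a cell farther away, although for most genes it did not hold it. Over 187 genes with at least 100 outside transcripts in each section, the nearest cell held the gene more often than the 10th nearest cell for 169 genes in section 1 and 136 in section 2. The median over genes was 8.02% for the nearest and 4.72% for the 10th nearest cell in section 1, and 3.16% and 2.09% in section 2. Cells were ranked by the distance to their centres. These percentages also depend on how many transcripts a cell held, which was not adjusted for. Inside gene transcripts numbered 428386 in 26037 cells of section 1 and 475382 in 85929 cells of section 2. For Ighm the nearest cell held the gene for 46.1% of outside transcripts and the 10th nearest for 2.43% in section 1, and for 9.21% and 2.09% in section 2. For Cd74, the invariant chain of antigen-presenting cells, the values were 20.4% and 3.24% in section 1 and 17.8% and 3.15% in section 2. For Csf1r they were 27.2% and 7.85% in section 1 and 8.56% and 2.55% in section 2, and for Clec4f 9.31% and 2.39%, then 8.85% and 0.328%. These 4 genes thus had wide gaps for their level, whereas Hp had 69.6% and 56.1% in section 1 and 61.9% and 53.0% in section 2. Il1a ran the other way in section 1, with 1.07% for the nearest and 3.21% for the 10th nearest cell of 187 outside transcripts. In section 2 it did not, with 5.90% and 3.98% of 2084. Some other genes also ran the other way in section 1, such as Lect2 at 0.556% and 4.44%. The genes named in this comparison were chosen after their values were seen.

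**Figure D5:**
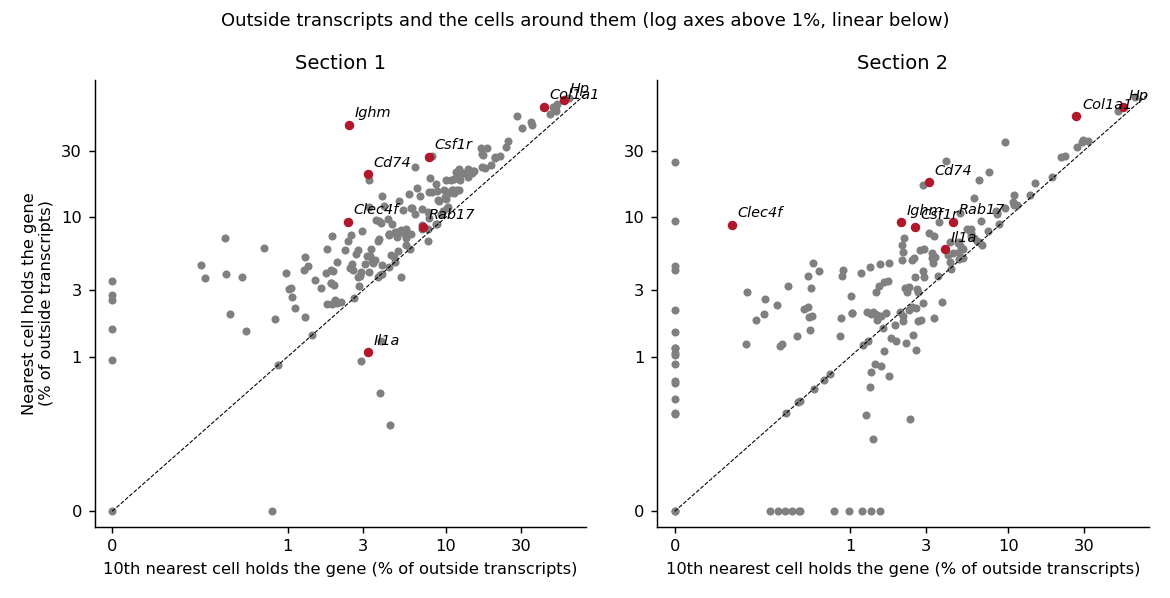
Percent of a gene's outside transcripts whose nearest segmented cell (y axis) and 10th nearest cell (x axis) held at least 1 transcript of that gene, for 187 genes in section 1 (left) and section 2 (right), on axes that are logarithmic above 1% and linear below. Points above the dashed line of equality are genes held more often by the nearest cell, 169 of 187 in section 1 and 136 in section 2; Ighm lies at 46.1% against 2.43% in section 1.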

How the data were processed

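MERFISH transcripts were measured in 2 liver sections. The authors deposited 1 line per decoded transcript (gene, position, plane and cell number) and counts per gene and cell. The decoding and segmentation software is not given in the sources used here, and µm was assumed as the unit of length. Recounting 5 genes by cell matched all 130185 and 429645 deposited counts, and the authors' transcript total per cell equalled the recounted gene total in 20954 of 26037 and 79556 of 85929 cells. The sections shared 0 cell identifiers. Depth was 715621 and 724847 gene transcripts.

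Raw counts were summed per gene, section and place (or bin of distance) and tested with edgeR 4.0.16 (R 4.3.3; quasi-likelihood, section as a block, offset from gene totals without TMM, at least 50 transcripts, Benjamini-Hochberg at 0.05), with 4 sums and 1 residual degree of freedom, or 6 and 2. The section is thus the replicate block of the main design. The SE was derived from the log2 change and its F statistic. Blank codes entered no total or test. DESeq2 1.42.0, with its own scaling of the sums in place of gene totals, was an alternative, as were other filters, planes, distances and matched squares. The code was tested on simulated data. Highest Blank codes held 987 and 2140 transcripts, which 41 genes exceeded in both sections. The rule for named genes was the 10 with most transcripts, up to 4 per list with most transcripts, and up to 12 (by distance 8) each way among genes above the highest Blank code that passed the test. By distance its last part gave only Ctsb, and outside against inside it gave no gene, since none passed. In its place, the 12 lowest and 12 highest mean log2 ratios were taken, after values were seen, among genes with at least 500 transcripts per section and the same side in both, and further genes were also chosen after their values were seen. Members and lists were chosen with earlier results of these data known. No probe sequences were used here. Some genes are not reported here.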

Additional observations from a re-analysis of the deposited data

How the results depend on the processing

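The count of genes called outside against inside was 0 higher and 0 lower with TMM, without the filter on low counts, with at least 500 transcripts, with only the 41 genes above the highest Blank code, with the mean Blank count subtracted, with cells of at least 10 counts, in the lowest plane, with no replicate block and in squares with a cell centre. It was 4 higher and 5 lower with DESeq2, 6 and 25 with totals that left out the 5 leading genes, 0 and 11 against cells under 10 counts, 5 and 0 in the highest plane, 4 and 30 for the nearest bin of outside transcripts and 0 and 3 for the farthest bin. In matched squares it was 9 and 114, but 0 and 0 with another draw, 10 and 96 at 25 µm, 0 and 1 at 100 µm, 8 and 97 when planes were matched too, 0 and 31 with cells of at least 10 counts and 47 and 20 with DESeq2. The cause was not tested. Settings with squares other than the planned ones were added after seeing the data. The 12 lowest genes stayed below 0 under every setting in which they were tested. Calls by distance were 4 higher and 3 lower with TMM and without the filter, 0 and 0 with DESeq2 and with no replicate block, 4 and 2 with 5 bins, 19 and 2 with bounding boxes and 2 and 2 in squares with a cell centre. Without either section no test was possible, and the log2 ratios are those of the other section.

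The share outside was 50.4% and 40.0% in the lowest plane, 30.7% and 27.9% in the highest, 45.5% and 58.6% with cells under 10 counts counted as outside, and 39.5% and 34.1% in squares with a cell centre (sections 1 and 2). Log2 ratios changed sign as follows. In the highest plane, Apoh stood at -0.41, Cyp2e1 at -0.33, Fga at -0.23, Igfbp2 at -0.36, F2 at -0.35, Hp at -0.34, Fn1 at -0.45, Igfbp4 at -0.31 and Fgb at -0.39. Against cells under 10 counts, Rab17 stood at -0.45, Slfn1 at -0.22, Lrp6 at -0.30, Mmut at -0.60, Cldn1 at -0.20, Klf1 at -0.75 and Lrp1 at 0.22. In the lowest plane, Lrp6 stood at -0.17, Klf1 at -0.089 and Lrp1 at 0.058. In matched squares, Mmut stood at -0.082 and Klf1 at -0.10, at 25 µm at -0.0044 and -0.094, at 100 µm at -0.13 and -0.032, and with another draw at -0.076 and -0.082, where Lrp6 stood at -0.00069 and Lrp1 at 0.014. With planes matched too, Lrp6 stood at -0.041 and Lrp1 at 0.057, and with DESeq2 in matched squares Ctsb stood at 0.051 and Lrp1 at 0.34. Lrp1 stood at 0.046 with TMM, 0.13 with DESeq2 and 0.025 without the 5 leading genes in the totals, and ranged from -0.15 to 0.021 without either section, as Igfbp4 did from -0.053 to 0.19. The median log2 ratio of all tested genes was -0.05, and 0.06 with TMM, 0.14 with DESeq2 and -0.83 with Blank counts subtracted. At this depth, 323 of 484 genes overlapped all genes in at least 1 section.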
